A study of Mus musculus with 6 samples.

Results

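Type I interferon stimulated effector genes were followed in T cells isolated by CD3 from the spleen of mice that carried a graft. The set holds 40 genes, named in a list drawn up for this description with earlier results of these data known, out of 55416 genes in the files. All 40 were found by symbol, and all 40 passed the filter on low counts. The Ifit family has 5 of these genes, Oas with Oasl 8, Mx 2 and Parp 3. RNA was sequenced in 3 libraries from allograft recipients, which had received a graft from a genetically different donor, and 3 libraries from isograft recipients, whose donor was genetically identical. All recipients were C57BL/6 mice of WT genotype, both groups spent time in a serum-containing culture, and the labels name no added agent. Neither the organ grafted nor the donor strain, the time after grafting, the age of the mice or the length of culture is stated in the sources used here. Whether each library stands for a mouse of its own is not stated either, and p-values therefore cover only how these libraries vary, which may be technical variation. Library totals lay between 30066137 and 37821738 counts.

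Type I interferons bind the receptor IFNAR, whose kinases JAK1 and TYK2 activate the transcription factor complex ISGF3, which binds the interferon stimulated response element and switches on a large set of antiviral genes. Their products bind viral RNA (Ifit), make the second messenger that activates RNase L (Oas), trap viral nucleocapsids (Mx), attach ADP-ribose to proteins (Parp) or modify proteins with the ubiquitin-like ISG15. T cells respond to type I interferon as other cells do, and many of these genes also respond to interferon gamma.

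Promoter windows were matched for 29 of the 40 members in RefSeq tables of GRCm38.p6, and each window runs from 250 bases before the start site through the 50 bases from it on. The core of the interferon stimulated response element, which is GAAA, any 2 bases and GAAA again, was searched on both strands. Sequences before the start site are shown for the 5 members with the largest rise in allograft libraries among those with a match there. The matches are in capitals, a match that begins with TTTC is the same core read on the other strand, and coordinates are those of GRCm38.p6.
Isg15, chr4:156200855-156200916, minus strand: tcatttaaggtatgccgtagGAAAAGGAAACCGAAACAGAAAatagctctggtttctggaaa
Rsad2, chr12:26456543-26456592, minus strand: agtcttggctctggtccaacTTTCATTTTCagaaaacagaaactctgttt
Oas3, chr5:120777705-120777754, minus strand: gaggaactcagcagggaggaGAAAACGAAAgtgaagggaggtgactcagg
Bst2, chr8:71537567-71537622, minus strand: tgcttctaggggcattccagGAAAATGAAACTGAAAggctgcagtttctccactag
Oas1a, chr5:120907526-120907565, minus strand: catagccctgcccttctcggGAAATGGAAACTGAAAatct
The Isg15 stretch holds 3 overlapping matches and those of Bst2 and Oas1a hold 2 each. A further 3 sequences, chosen after their values were seen, come from Ifit genes that fell.
Ifit3, chr19:34583353-34583436, plus strand: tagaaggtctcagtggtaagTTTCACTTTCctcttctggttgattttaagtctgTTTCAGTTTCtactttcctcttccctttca
Ifit3b, chr19:34607749-34607832, plus strand: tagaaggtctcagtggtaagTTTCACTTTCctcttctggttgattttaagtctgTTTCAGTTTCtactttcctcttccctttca
Ifit1bl1, chr19:34602043-34602092, minus strand: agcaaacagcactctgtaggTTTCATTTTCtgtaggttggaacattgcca
The Ifit3 and Ifit3b stretches are identical over all 84 bases compared.

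Markers of both T cells and other cells were present in every library. A gene rose or fell in allograft libraries where its adjusted p was under 0.05 in edgeR's quasi-likelihood test. Of all 14926 genes tested 28.7% rose and 29.1% fell. The 12 T cell markers summed to 1465 to 1618 CPM in allograft and 1980 to 2076 CPM in isograft libraries, where CPM is the count scaled to a common TMM-adjusted library size, and 3 rose and 7 fell. Cd3e, a chain of the CD3 complex, averaged 79.1 ± 12.5 CPM in allograft and 122.6 ± 2.997 CPM in isograft libraries (SD, n = 3 each). The 3 that rose were Cd5 by 1.38, Zap70 by 1.18 and Cd8a by 0.26 on the log2 scale. Beside Cd3e, those that fell were Cd4 by 1.57, Cd247 by 1.35, Cd3d by 0.78, Cd3g by 0.58, Cd8b1 by 0.55 and Cd28 by 0.31. The 10 B cell markers summed to 1778 to 1915 CPM in allograft and 1507 to 1603 CPM in isograft libraries, a level near that of the T cell markers, and 4 rose and 4 fell. Among them Fcer2a averaged 378.0 ± 22.6 CPM in allograft and 52.8 ± 0.951 CPM in isograft libraries, while Cd79a fell by 0.78 and Cd79b by 0.87 on the log2 scale. The 10 macrophage and monocyte markers summed to 106.2 to 116.3 CPM in allograft and 121.4 to 130.6 CPM in isograft libraries, and 2 rose and 3 fell. Macrophage and NK cell markers were thus far under both lymphocyte lists: the 8 NK cell markers summed to 84.0 to 90.6 CPM in allograft and 61.7 to 68.0 CPM in isograft libraries, and 2 rose and 1 fell. Of the NK cell list, Eomes averaged 36.8 ± 4.71 CPM in allograft and 13.15 ± 2.10 CPM in isograft libraries, while Gzma fell by 0.39 on the log2 scale. The 8 dendritic cell markers summed to 893.7 to 1223 CPM in allograft and 617.3 to 768.3 CPM in isograft libraries, most of it H2-Ab1, and 3 rose and 0 fell. Beside H2-Ab1, Zbtb46 and Batf3 rose, by 2.11 and 0.71 on the log2 scale. Zbtb46 was at 59.0 ± 3.34 CPM in allograft and 13.6 ± 0.528 CPM in isograft libraries. Flt3 (log2 fold change 0.05), Itgax (-0.28), Xcr1 (0.08) and Clec9a (-0.55) did not pass, and Cd209a was at 0 in every allograft library. The 5 plasma cell markers summed to 763.7 to 861.9 CPM in allograft and 217.8 to 227.9 CPM in isograft libraries, most of it Irf4, which activated T cells also express. Of these 2 rose and 1, Sdc1, fell, by 1.52 on the log2 scale. Mzb1 averaged 1.35 CPM in allograft and 1.53 CPM in isograft libraries. The 8 plasmacytoid dendritic cell markers other than Bst2 summed to 1256 to 1675 CPM in allograft and 417.5 to 503.2 CPM in isograft libraries, most of it Irf8, which B cells also express, and 3 rose and 1 fell. Siglech, which defines those cells, averaged 0.201 ± 0.126 CPM in allograft and 0.259 ± 0.116 CPM in isograft libraries. The 6 neutrophil markers summed to at most 9.21 CPM in allograft and 10.5 CPM in isograft libraries. B cells and myeloid cells can express the effector genes too, and the part of the other cells in the results was not tested.

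The effector genes did not move as a block. In allograft libraries 22 of 40 rose, 7 fell and 11 did not pass the test (edgeR's quasi-likelihood test, adjusted p under 0.05 over 14926 genes). The comparison was broad: 28.7% of all genes tested rose and 29.1% fell, against 55.0% and 17.5% of the members, and in either direction 57.8% of all genes passed. At least 2-fold, 4 members rose, or 10.0%, against 10.1% of all genes, and 2 fell, or 5.0%, also against 10.1%. The groups did not overlap for 31 members, or 77.5%, against 63.3% of all genes. Of these, 24 members had every allograft library above every isograft library (60.0%, against 31.3% of all genes), and 7 the reverse (17.5%, against 32.1%). The median log2 fold change (allograft minus isograft) was 0.31 over the members and -0.01 over all genes, and its median size without sign was 0.44 for members and 0.50 for all genes. Scaling by library totals in place of TMM shifted the median of all genes by -0.22 (log2), and 17 members rose and 12 fell beside 2973 and 6093 of all genes. The distance between the members' median and that of all genes was 0.32 under either scaling, because a change of scaling shifts all genes by nearly the same amount.

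**Figure D1:**
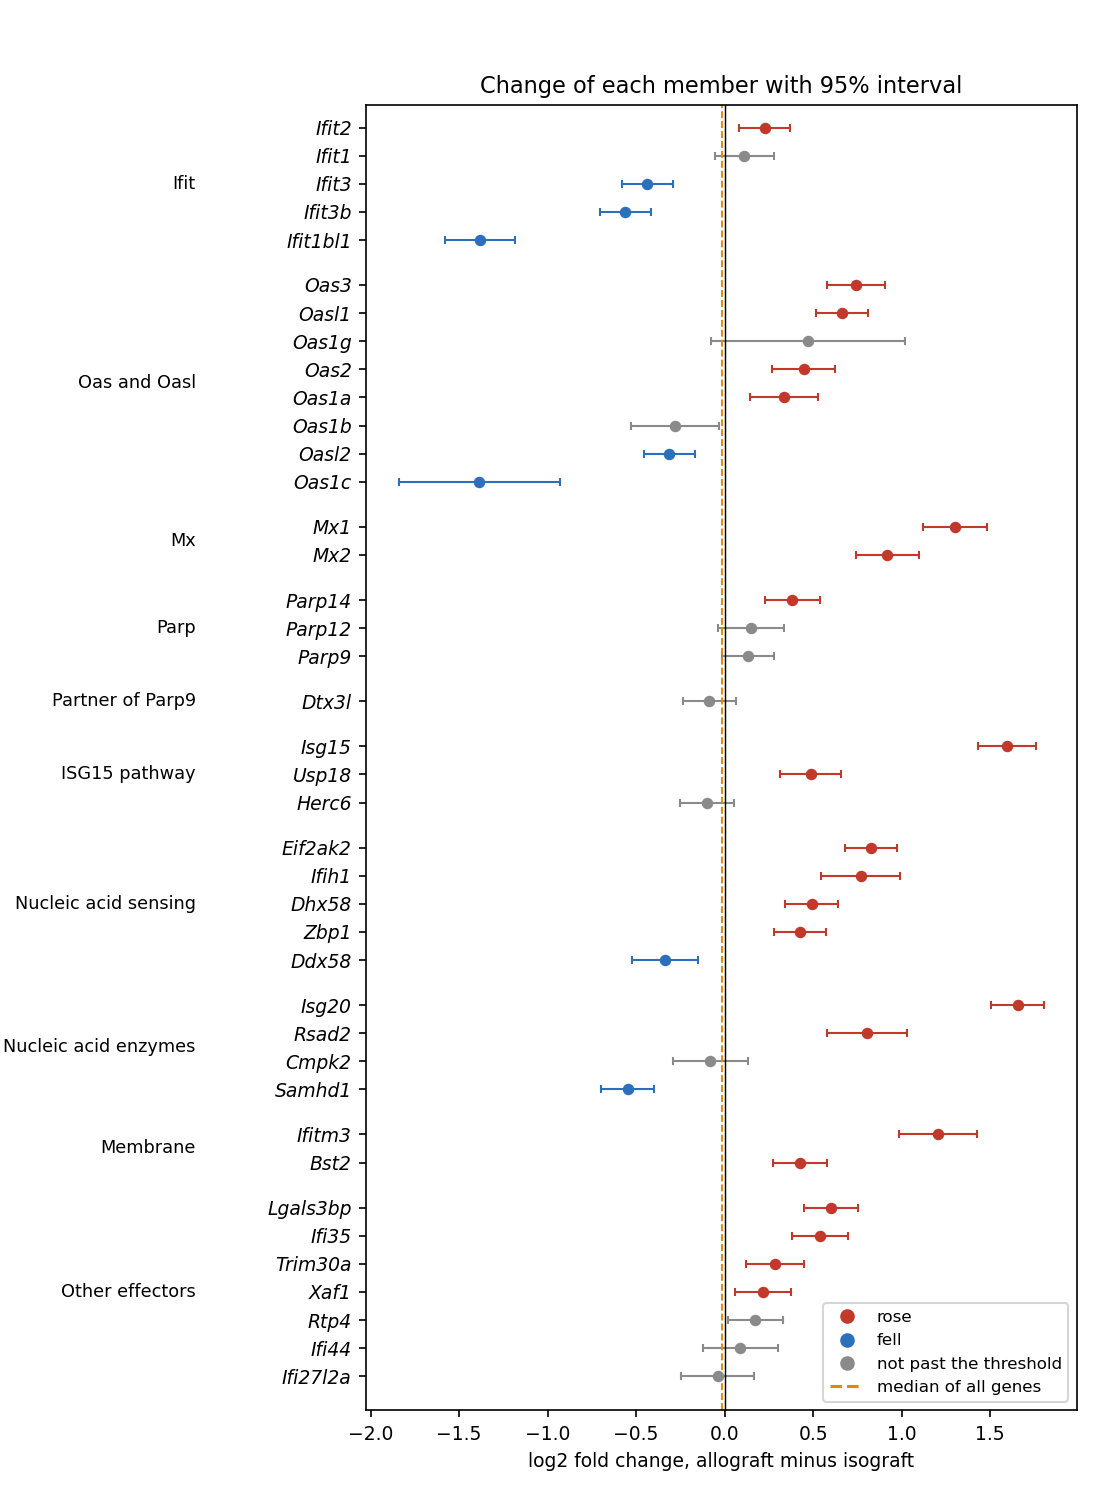
Log2 fold change (allograft minus isograft) of each of the 40 members with its 95% interval, grouped by family or role, red for members that rose, blue for members that fell and grey for those past no threshold. Both Mx genes lie to the right of 0, while the Ifit and Oas groups hold members on either side.

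**Figure D2:**
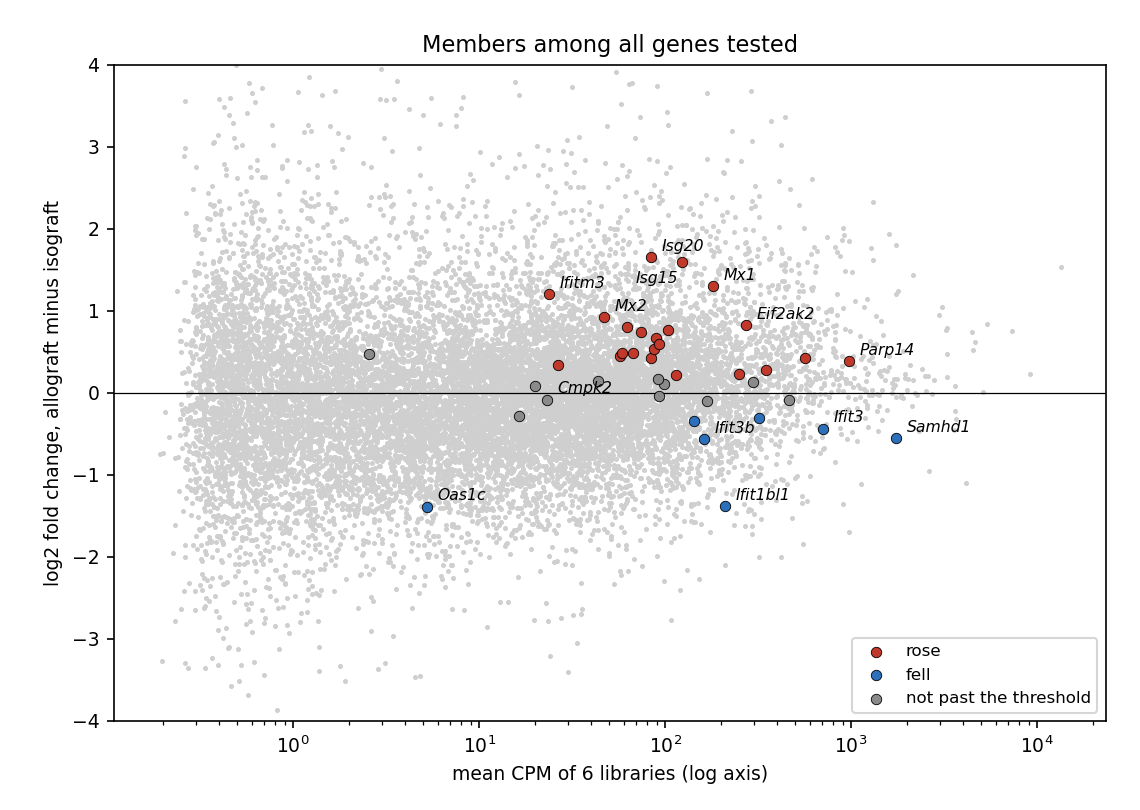
Log2 fold change against mean CPM over the 6 libraries (log axis) for all 14926 genes tested in grey and the members in colour, and 35 genes lie outside the plotted range. The members lie inside the spread of the other genes, from -1.39 for Oas1c to 1.66 for Isg20.

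The members held 0.748% to 0.842% of the counts in allograft libraries and 0.881% to 0.907% in isograft libraries. Their summed level was 8174, 8333 and 9004 CPM in allograft libraries and 8246, 8342 and 8272 CPM in isograft libraries, so the groups overlapped. Samhd1 made up 16.7% of that sum in allograft and 25.1% in isograft libraries. Without Samhd1, which was set apart after its values were seen, the sum averaged 7083 ± 379 CPM in allograft and 6209 ± 18.0 CPM in isograft libraries (SD, n = 3 each). In bulk RNA, fewer cells of a type and less RNA per cell cannot be told apart.

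The Ifit genes split in direction. They lie together on chromosome 19 between 34528094 and 34627409 (GRCm39), a stretch that holds 7 annotated genes. Of 5 members 1 rose and 3 fell, and the middle log2 fold change was -0.44. Their summed level was 1217 ± 73.7 CPM in allograft and 1632 ± 56.2 CPM in isograft libraries.

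Ifit1bl1, an Ifit1-like gene, stood at 106.1, 105.1 and 139.4 CPM in allograft libraries and at 311.0, 300.2 and 302.9 CPM in isograft libraries. Every allograft library was less than any isograft library, and allograft replicate 3 was the highest of its group. The log2 fold change was -1.38 ± 0.09 (SE, adjusted p = 1.1e-09). Ifit3 had 592.6, 569.0 and 632.8 CPM in allograft libraries and 822.6, 776.7 and 829.4 CPM in isograft libraries. Ifit3b had 129.8, 125.9 and 138.0 CPM in allograft libraries and 193.7, 187.5 and 199.2 CPM in isograft libraries. Neither gene's groups overlapped, with log2 fold changes of -0.44 for Ifit3 and -0.56 for Ifit3b. The pair is uncertain as separate genes, because 51.2% of the 50-base words in Ifit3 transcripts also occur in other genes' transcripts, and 45.0% of those in Ifit3b.

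Ifit2 had 256.0, 268.8 and 280.1 CPM in allograft libraries and 236.8, 215.9 and 235.8 CPM in isograft libraries. It rose by 0.23 ± 0.07 (adjusted p = 0.0094), a call lost with library totals (adjusted p = 0.97) and when isograft replicate 2 was left out (0.18, adjusted p = 0.073). Ifit1 had 97.7, 99.0 and 111.7 CPM in allograft libraries and 99.0, 87.2 and 99.4 CPM in isograft libraries. Its groups overlapped, and the log2 fold change of 0.11 (95% interval -0.05 to 0.28) did not pass (adjusted p = 0.24). It was -0.11 with library totals, 0.04 without allograft replicate 3 and 0.05 without isograft replicate 2. Relative to Ifit3 in the same cluster, Ifit1 stood 0.55 higher in allograft than in isograft libraries on the log2 scale (exact permutation p = 0.10, adjusted 0.11 over 9 pairs). That p is the smallest that 3 against 3 libraries allow, so no pair could pass.

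**Figure D3:**
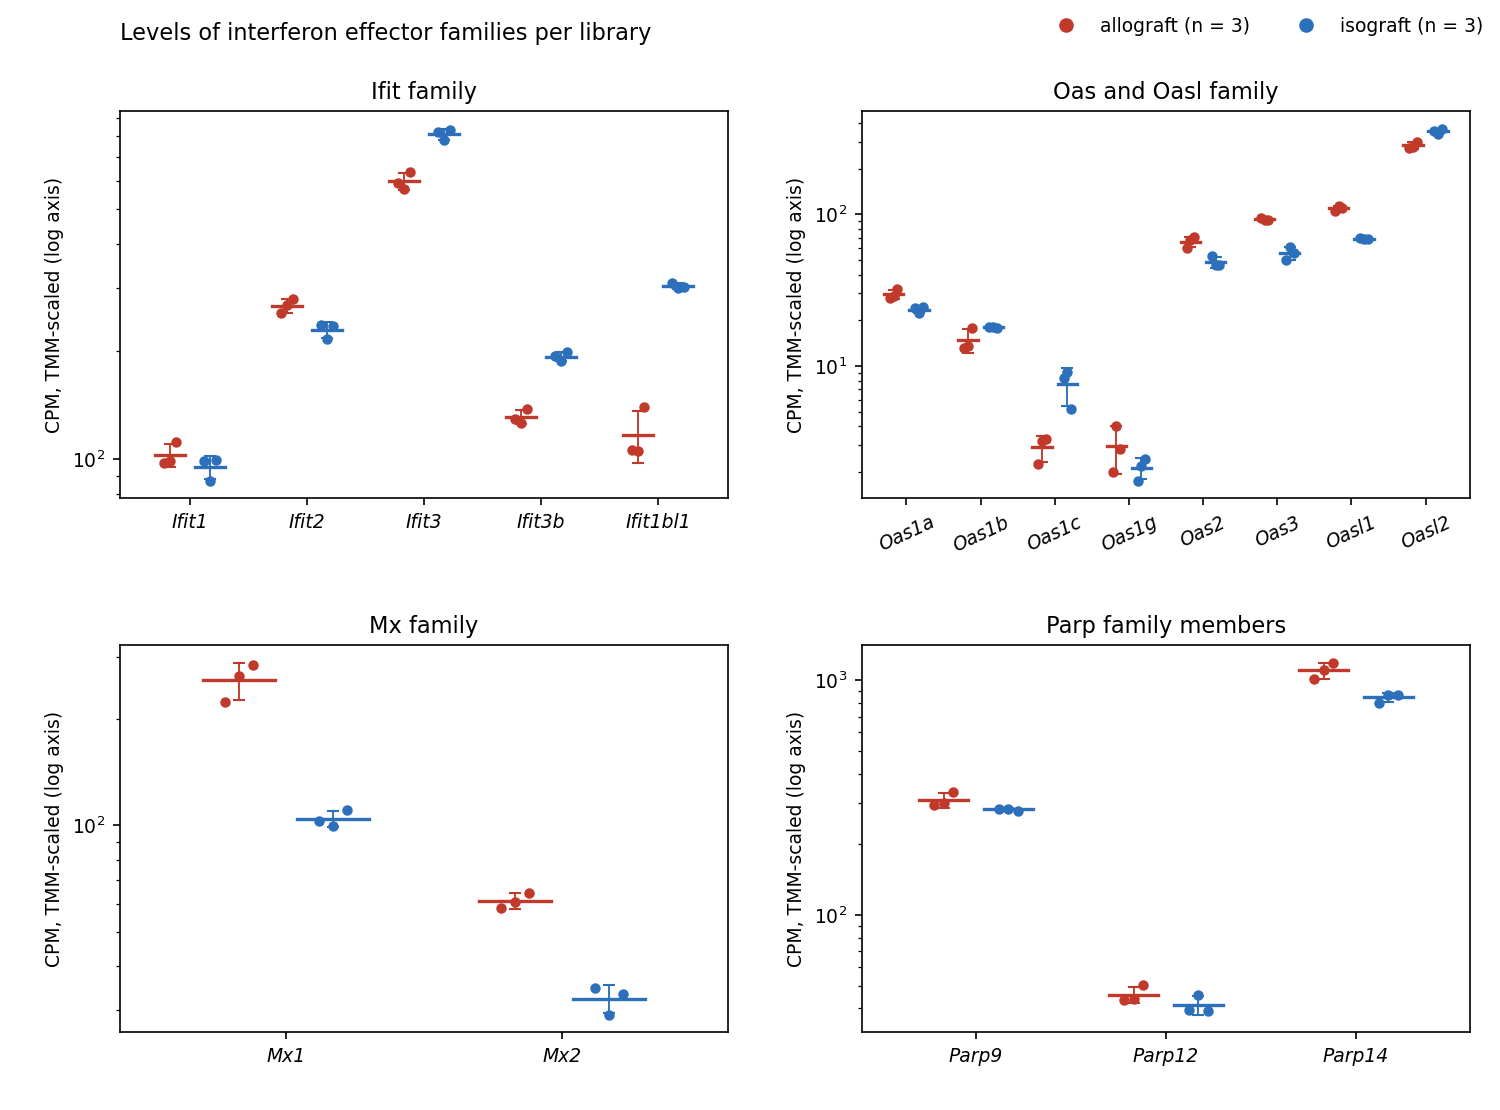
CPM per library (log axis) of the Ifit, Oas with Oasl, Mx and Parp members, red for allograft and blue for isograft, with bars for the mean and SD of 3 libraries. Ifit3, Ifit3b, Ifit1bl1, Oas1c and Oasl2 have every allograft point under every isograft point, and both Mx genes have the reverse.

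The Oas genes encode 2′-5′ oligoadenylate synthetases, and the Oasl genes are relatives that act in RNA sensing and its control. Of 8 members 4 rose and 2 fell, the median being 0.39, and their summed level was 602.1 ± 24.6 CPM in allograft and 576.3 ± 11.6 CPM in isograft libraries. The Oas1, Oas2 and Oas3 members lie on chromosome 5 from 120868398 to 121045584, and Oasl1 and Oasl2 from 115034997 to 115075974 on the same chromosome.

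Oas3, the largest of the synthetases, had 94.6, 92.1 and 90.9 CPM in allograft libraries and 50.1, 60.3 and 55.5 CPM in isograft libraries, without overlap, a log2 fold change of 0.74 ± 0.08 (adjusted p = 1.1e-07). Oas2 had 60.2, 67.5 and 70.2 CPM in allograft libraries and 53.2, 46.1 and 45.9 CPM in isograft libraries, a rise of 0.45 ± 0.08. The groups of these neighbouring genes did not overlap, but the Oas2 over Oas3 ratio did, with a difference of -0.30 (exact permutation p = 0.20), which was -0.16 without isograft replicate 1. Oas1a had 28.0, 29.0 and 31.9 CPM in allograft libraries and 24.04, 22.2 and 24.3 CPM in isograft libraries. Its rise of 0.34 ± 0.09 was lost with library totals (0.11, adjusted p = 0.32).

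The rest of the Oas1 cluster was low. Oas1c had 2.24, 3.17 and 3.27 CPM in allograft libraries and 8.25, 9.18 and 5.18 CPM in isograft libraries. It fell by 1.39 on the log2 scale (SE 0.22, adjusted p = 2.3e-05), and 9.44% of its exonic bases lie in the exons of another annotated gene. Oas1b, which carries a premature stop codon in C57BL/6 and other classical laboratory strains, had 13.1, 13.5 and 17.8 CPM in allograft libraries and 18.2, 18.0 and 17.7 CPM in isograft libraries. Allograft replicate 3 was within the isograft range. The difference of -0.28 missed the threshold (adjusted p = 0.052). Leaving out a library gave -0.21 (adjusted p = 0.18, without allograft replicate 1) to -0.44 (adjusted p = 0.0027, without allograft replicate 3). The gene also passed with limma-voom (adjusted p = 0.040), no low-count filter (0.034), the filter at 5 CPM (0.033), halved counts (0.047) and library totals (0.0012). Oas1g had 1.99, 4.04 and 2.84 CPM in allograft libraries and 1.75, 2.20 and 2.43 CPM in isograft libraries. Its groups overlapped (0.47, 95% interval -0.08 to 1.02), and leaving out a library gave 0.18 (adjusted p = 0.62, without allograft replicate 2) to 0.69 (adjusted p = 0.029, without allograft replicate 1). Oas1a and Oas1g share sequence: 57.6% and 45.7% of their 50-base words occur in other genes' transcripts, so their split is uncertain.

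The 2 Oasl genes are neighbours and moved in opposite directions. Oasl1, which restrains translation of Irf7, had 104.9, 113.0 and 110.1 CPM in allograft libraries and 69.7, 68.5 and 68.9 CPM in isograft libraries. Oasl2 had 274.1, 276.6 and 301.0 CPM in allograft libraries and 356.1, 336.6 and 364.6 CPM in isograft libraries. Neither overlapped, with log2 fold changes of 0.66 ± 0.07 for Oasl1 and -0.31 ± 0.07 for Oasl2. The Oasl1 over Oasl2 ratio, which scaling does not touch, averaged -1.38 ± 0.08 in allograft and -2.35 ± 0.05 in isograft libraries on the log2 scale (SD, n = 3 each, exact permutation p = 0.10, adjusted 0.11).

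Both Mx genes, which encode dynamin-like GTPases, rose, also under each other setting tried. They lie on chromosome 16 from 97248235 to 97362100. Mx1 had 222.8, 264.2 and 284.5 CPM in allograft libraries and 102.9, 99.7 and 110.7 CPM in isograft libraries. Mx2 had 58.2, 60.7 and 64.5 CPM in allograft libraries and 34.7, 29.1 and 33.3 CPM in isograft libraries. The groups were apart for both genes, with log2 fold changes of 1.30 ± 0.09 for Mx1 (adjusted p = 1.5e-10) and 0.92 ± 0.09 for Mx2 (adjusted p = 1.8e-08). In C57BL/6 mice the Mx1 gene carries a deletion of coding exons and makes no functional protein. The Mx1 over Mx2 ratio was higher in every allograft library, by 0.37 on the log2 scale (exact permutation p = 0.10, adjusted 0.11).

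Of the 3 Parp members 1 rose (33.3%) and 0 fell, against 28.7% and 29.1% of all genes tested. Dtx3l, an E3 ubiquitin ligase that works as a partner of Parp9, did not pass. Parp9, Dtx3l and Parp14 lie on chromosome 16 from 35653244 to 35792975. Parp14, a large mono-ADP-ribosyltransferase, had 1012, 1109 and 1183 CPM in allograft libraries and 800.8, 867.3 and 866.3 CPM in isograft libraries. Its rise of 0.38 ± 0.07 was the only call among the 3 Parp members, and library totals ended it (0.16, adjusted p = 0.060). Parp9 had 293.9, 298.7 and 334.9 CPM in allograft libraries and 283.7, 284.0 and 278.3 CPM in isograft libraries. Parp12 had 43.3, 43.9 and 50.1 CPM in allograft libraries and 39.3, 45.5 and 39.0 CPM in isograft libraries. Neither passed, with 95% intervals of the log2 difference from -0.01 to 0.28 for Parp9 and -0.04 to 0.33 for Parp12, and both differences turned negative with library totals. Dtx3l averaged 452.1 ± 29.6 CPM in allograft and 480.3 ± 20.9 CPM in isograft libraries, a difference of -0.09 (95% interval -0.24 to 0.06). Exons of Parp9 and Dtx3l overlap over 458 bases, and unstranded counting cannot assign such reads. Parp9 over Dtx3l differed by 0.22 on the log2 scale (exact permutation p = 0.10, adjusted 0.11).

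In the ISG15 pathway, the modifier and its protease rose, and the ligase did not pass. Isg15, the ubiquitin-like modifier, had 187.7, 184.4 and 182.5 CPM in allograft libraries and 57.2, 58.5 and 68.0 CPM in isograft libraries, a 3.02-fold ratio of means. The allograft libraries lay within a narrow band well above the isograft ones, and the log2 fold change was 1.59 ± 0.08 (adjusted p = 1.4e-12). Usp18, the protease that removes ISG15 and also dampens signalling at IFNAR, had 62.1, 69.9 and 74.2 CPM in allograft libraries and 51.8, 47.7 and 47.7 CPM in isograft libraries, a rise of 0.49 ± 0.08. Herc6, the main ISG15 ligase of mice, averaged 162.8 ± 13.3 CPM in allograft and 174.4 ± 0.787 CPM in isograft libraries. Its difference of -0.10 (95% interval -0.25 to 0.05) did not pass, and was -0.32 with library totals (adjusted p = 0.00082).

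Genes of nucleic acid sensing rose in 4 of 5 cases, against 28.7% of all genes tested. Eif2ak2, the kinase PKR, had 324.7, 361.9 and 363.8 CPM in allograft libraries and 190.4, 199.2 and 202.4 CPM in isograft libraries, a log2 fold change of 0.83 ± 0.07. Zbp1, a sensor of Z-form nucleic acid that can start necroptosis, had 657.6, 642.2 and 633.5 CPM in allograft libraries and 478.5, 514.1 and 445.4 CPM in isograft libraries. Dhx58, the regulatory RNA helicase LGP2, had 78.6, 77.5 and 79.3 CPM in allograft libraries and 58.0, 53.9 and 55.5 CPM in isograft libraries. Zbp1 rose by 0.43 and Dhx58 by 0.49, and the groups of all 3 genes were apart.

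The cytosolic RNA receptors went opposite ways. Ifih1, the receptor MDA5 for long double-stranded RNA, had 117.5, 116.7 and 159.2 CPM in allograft libraries and 75.7, 73.9 and 81.4 CPM in isograft libraries. Ddx58, the receptor RIG-I for RNA with 5′ triphosphate ends, had 112.1, 118.1 and 147.1 CPM in allograft libraries and 164.5, 155.0 and 157.3 CPM in isograft libraries. Allograft replicate 3 was the highest allograft library for both, and neither gene's groups overlapped. The log2 fold changes were 0.77 ± 0.10 for Ifih1 and -0.34 ± 0.09 for Ddx58. The log2 ratio of Ifih1 over Ddx58 was 0.07, -0.02 and 0.11 in allograft libraries and -1.12, -1.07 and -0.95 in isograft libraries (exact permutation p = 0.10, adjusted 0.11).

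Among enzymes that act on nucleic acids or nucleotides, Isg20, an exonuclease, had a rise close to that of Isg15, and the order of the pair turned when isograft replicate 3 was left out (1.63 for Isg20 and 1.67 for Isg15). It had 128.8, 124.3 and 127.8 CPM in allograft libraries and 41.5, 40.3 and 39.1 CPM in isograft libraries, a log2 fold change of 1.66 ± 0.07 (adjusted p = 2.9e-13). Samhd1, which breaks down deoxynucleotide triphosphates, had 1423, 1332 and 1508 CPM in allograft libraries and 2029, 2154 and 2052 CPM in isograft libraries. It was the member with the highest CPM in either group, and it fell by 0.55 on the log2 scale (adjusted p = 1.5e-06). Rsad2 encodes viperin, which makes a chain-terminating nucleotide, and Cmpk2 encodes a mitochondrial nucleotide kinase. The genes are neighbours on chromosome 12 with no annotated gene between them. Rsad2 had 69.9, 78.4 and 89.8 CPM in allograft libraries and 45.9, 38.9 and 51.7 CPM in isograft libraries. Cmpk2 had 20.9, 21.9 and 24.4 CPM in allograft libraries and 21.4, 24.5 and 25.1 CPM in isograft libraries. Rsad2 rose by 0.80 ± 0.11 without overlap, while Cmpk2 overlapped and differed by -0.08 (95% interval -0.29 to 0.13). The Rsad2 over Cmpk2 ratio differed by 0.88 on the log2 scale (exact permutation p = 0.10, adjusted 0.11).

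Both membrane proteins of the set rose. Ifitm3, which blocks fusion of viruses in endosomes, had 34.0, 36.7 and 28.9 CPM in allograft libraries and 13.8, 14.9 and 14.6 CPM in isograft libraries, a log2 fold change of 1.20 ± 0.10. Bst2, the tetherin that holds budding virus at the cell surface, had 96.8, 96.6 and 96.2 CPM in allograft libraries and 71.6, 76.3 and 67.4 CPM in isograft libraries, a rise of 0.43 ± 0.07. Of the 7 remaining effectors 4 rose (57.1%) and 0 fell, against 28.7% and 29.1% of all genes tested. Lgals3bp, a secreted galectin-binding glycoprotein, had 119.4, 105.4 and 111.1 CPM in allograft libraries and 72.2, 76.5 and 72.7 CPM in isograft libraries. Ifi35, which binds Nmi, had 105.9, 99.9 and 105.3 CPM in allograft libraries and 73.7, 65.8 and 74.8 CPM in isograft libraries, and 16.8% of its exonic bases lie in the exons of another annotated gene. Lgals3bp rose by 0.60 and Ifi35 by 0.54, without overlap.

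Smaller differences closed the list. Trim30a, a negative regulator of Toll-like receptor signalling, rose by 0.28 ± 0.08, which library totals ended (0.06, adjusted p = 0.53). Xaf1, an inhibitor of XIAP, rose by 0.22 ± 0.08. Library totals ended that call (-0.0037, adjusted p = 0.97). So did leaving out allograft replicate 2 (0.21), allograft replicate 3 (0.17) or isograft replicate 3 (0.16), with adjusted p-values between 0.062 and 0.11. Rtp4 differed by 0.17 (adjusted p = 0.055) although its groups did not overlap. It passed with RLE scaling (adjusted p = 0.045), with DESeq2 (0.047) and without isograft replicate 1 (0.025), and had a value of -0.05 with library totals. Ifi44 averaged 20.7 ± 1.08 CPM in allograft and 19.5 ± 1.40 CPM in isograft libraries. Ifi27l2a averaged 91.8 ± 4.88 CPM in allograft and 94.3 ± 14.9 CPM in isograft libraries. Neither passed, with 95% intervals of -0.12 to 0.30 for Ifi44 and -0.24 to 0.17 for Ifi27l2a.

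**Figure D4:**
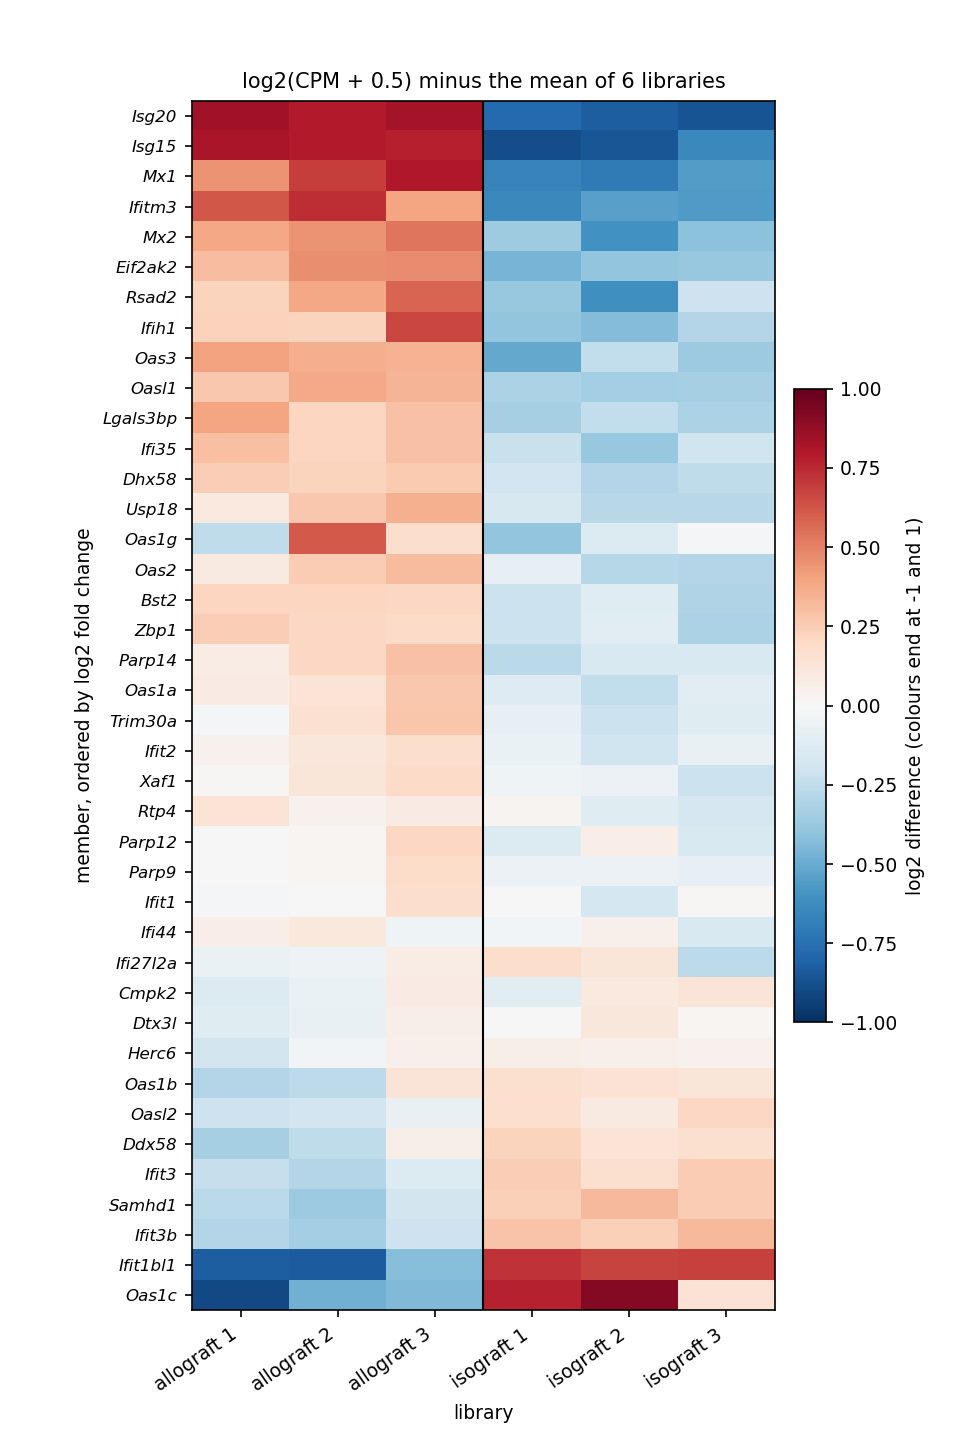
log2(CPM + 0.5) of each member minus its mean over the 6 libraries, with allograft libraries in the left columns and isograft libraries in the right ones, and members ordered by log2 fold change. Allograft replicate 3 is the darkest of its group for Ifih1 and the palest for Ifit1bl1, and Isg20 and Isg15 are red in every allograft and blue in every isograft library.

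Allograft replicate 3 held the highest level of its group for 28 of the 40 members, among them all 7 that fell and 13 of the 22 that rose. How often it did so over all genes was not counted. In isograft libraries the highest level fell to replicates 1, 2 and 3 for 15, 12 and 13 members. The median coefficient of variation over members was 6.42% in allograft and 4.96% in isograft libraries. Leaving out any library gave 21 to 23 members that rose and 7 or 8 that fell.

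Set per exon length, as CPM per kilobase, the members spanned a wide range. In allograft libraries the order began with Ifit3 at 342.8, Isg15 at 263.0, Ifi27l2a at 198.3 and Zbp1 at 182.6 CPM per kilobase, and ended with Oas1c at 1.20. In isograft libraries it began with Ifit3 at 463.9, Samhd1 at 227.1, Ifi27l2a at 203.6 and Zbp1 at 135.8 CPM per kilobase, and ended with Oas1g at 0.909. Isg15 stood in place 2 in allograft and in place 8 in isograft libraries, and Ifit1bl1 in place 17 in allograft and in place 5 in isograft libraries. Of neighbours in that order, 23 overlapped in range over libraries and 16 did not in the allograft group, and 25 overlapped and 14 did not in the isograft group.

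The response element core was found in the windows of 16 of the 29 matched members, or 55.2%, and in 3.99% of all 27025 genes with a window. It is shared by members that moved either way: 9 of 15 that rose, 5 of 7 that fell and 2 of 7 that did not pass held it. Counting only bases before the start site, 12 of 29 members held it, against 3.46% of all genes. TTCNNNGAA, the core of the gamma activated site found in many interferon gamma responsive genes, searched on both strands, was found in 8 of 29 members, or 27.6%, and in 9.55% of all genes. Of those 8 members 7 rose and 1, Samhd1, fell, while 15 of all 29 matched members rose and 7 fell. Matches of the 2 motifs overlap by 3 bases in Bst2 and Ifitm3. A match is a description of letters, and no binding was measured. Dhx58, Ifi27l2a, Mx1, Mx2, Oas1b, Oas2, Parp14, Parp9, Rtp4, Usp18 and Zbp1 had no matched window.

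**Figure D5:**
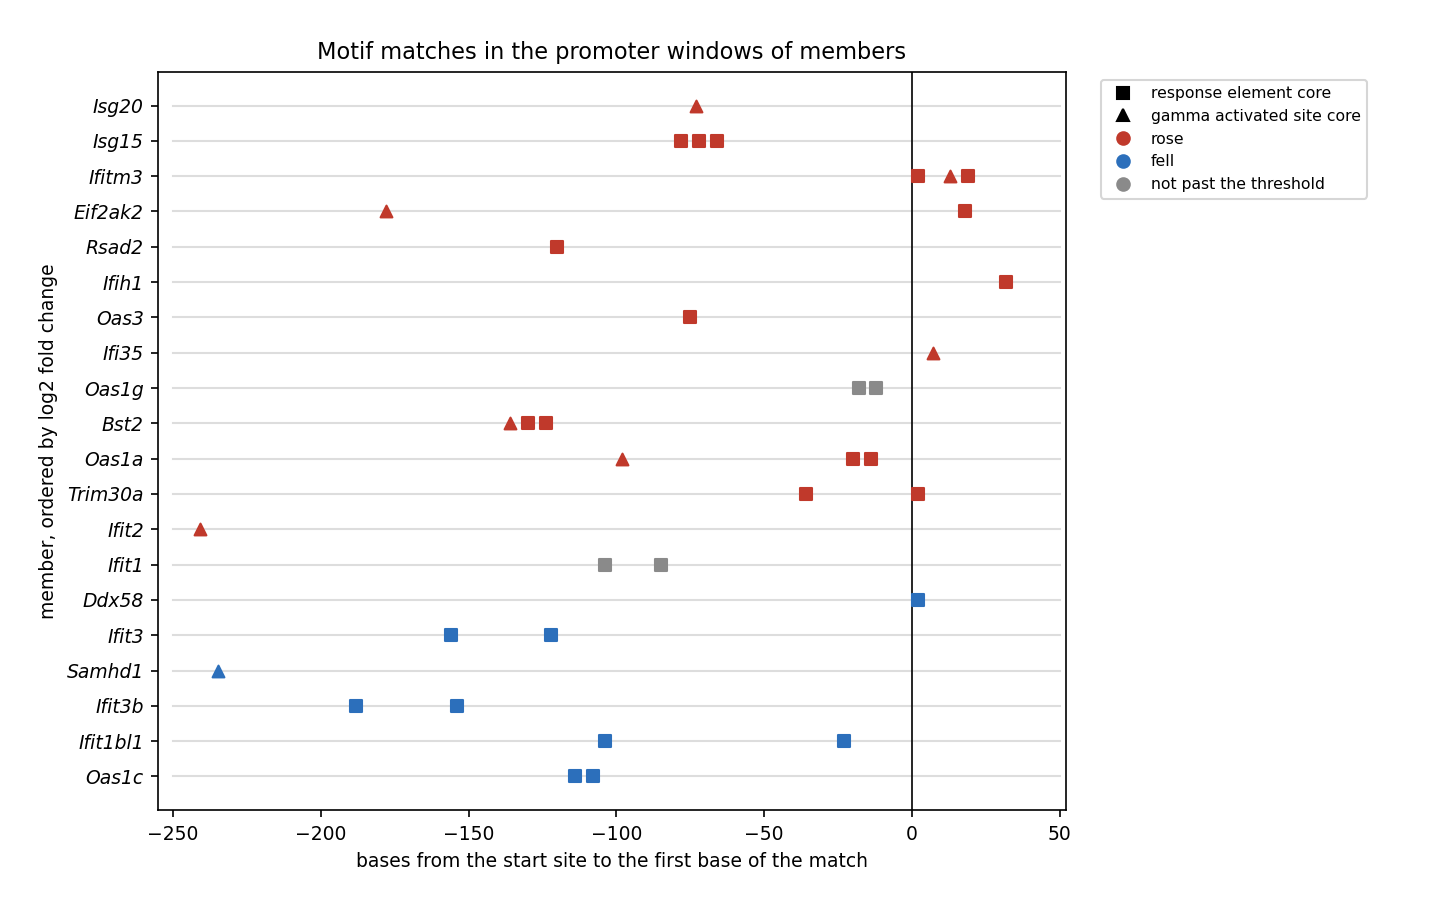
Distance in bases from the start site to the first base of each motif match, for the members with any match, ordered by log2 fold change, with squares for the response element core and triangles for the gamma activated site core. Squares occur in members that rose (red), fell (blue) and did not pass (grey), with the start site at 0.

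Components of the pathway upstream of the effectors also split. From a list of 29 genes of interferon sensing and signalling, 24 were tested, and 10 rose and 8 fell. These are 41.7% and 33.3% of those tested, against 28.7% and 29.1% of all genes. Ifnar1, a receptor chain, had 61.2 ± 1.38 CPM in allograft and 110.6 ± 3.48 CPM in isograft libraries and fell by 0.85 on the log2 scale, while Ifnar2 differed by -0.21 (adjusted p = 0.051). Of the genes for ISGF3 subunits, Stat2 rose by 0.18, less than the shift of 0.22 between the scalings, and Irf9 differed by -0.10 (adjusted p = 0.20), and Irf7, an amplifier of interferon production, fell by 0.19. The signalling inhibitors rose, Socs3 by 1.22 and Socs1 by 1.36, the DNA sensor gene Cgas rose by 2.01, and Ikbke, a kinase of IRF factors, fell by 1.01. In a list of 53 other interferon induced genes 19 rose (37.3%) and 18 fell (35.3%) of 51 tested, with a median of 0.04. In a list of 20 genes induced mainly by interferon gamma 14 rose (70.0%) and 2 fell (10.0%), with a median of 0.42. Some genes, among them Irf7, Gbp2 and Socs1, stand in more than a single list.

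Transcripts of the 5 type I interferon ligands looked at, Ifnb1, Ifna1, Ifna2, Ifna4 and Ifne, were close to 0. Ifnb1 had 0, 2 and 2 counts in allograft libraries and 2, 6 and 2 counts in isograft libraries. Ifna4 had 8, 8 and 2 counts in allograft libraries and 0, 0 and 2 counts in isograft libraries. Ifna1 and Ifna2 had at most 6 and 4 counts in a library, and Ifne had 0 counts in every library, which allows up to 3 counts in each. Ifna genes are near-identical copies, whose shared reads were left out, and none of these genes was tested.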

How the data were processed

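Whole-number counts per gene were deposited for 6 libraries. Per the file headers, the authors counted exon reads per Ensembl gene with featureCounts 1.6.0 in its paired-end mode, on annotation release 104 of GRCm39. The headers name HISAT alignments without a version. No strand or multi-mapping option was set. GRCm38, or mm10, is the build in the submitters' processing notes. Of the 40 members, 35 have intervals that do not overlap between those builds, and each of them held at least 484 counts, so the files' coordinates are printed as GRCm39. Library totals ran from 30066137 to 37821738 counts. In each library genes with a count of 2 (1846 to 1930) outnumbered genes with a count of 1 (887 to 1017), so low counts are not all separate fragments.

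By Ensembl ID, 52083 of 55416 genes received a symbol. edgeR 4.0.16 (R 4.3.3) kept 14926 genes by filterByExpr and compared allograft with isograft libraries with TMM scaling and the robust quasi-likelihood test, with Benjamini-Hochberg adjustment over all genes and a threshold of 0.05. Each SE was derived from the log2 fold change and its F statistic. Members, gene lists and the rule for values given in every library (the 4 families, 9 fixed genes, and up to 5 largest rises and falls of the rest) were chosen with earlier results of these data known. The procedure was tested on simulated data. Within groups, libraries differed by a chi-square per degree of freedom of 9.58 to 20.0, above sampling noise. Figures were drawn with matplotlib 3.10.9, and limma 3.58.1 and DESeq2 1.42.0 served for alternatives. Some genes of the lists are not reported here.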

Additional observations from a re-analysis of the deposited data

How the results depend on the processing

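The 15 alternatives were RLE scaling, library totals, DESeq2, limma-voom, no low-count filter, at least 5 CPM in 3 libraries, the replicate block, omission of each library in turn, omission of hemoglobin, mitochondrial and immunoglobulin genes, and, chosen after seeing the data, counts halved and rounded. The 7 members that fell and 17 of the 22 that rose kept their direction and call in all of them. Each of the 11 members that did not pass changed its call or sign under at least 1 of them. With library totals 12 members fell, Oas1b, Dtx3l, Herc6, Cmpk2 and Ifi27l2a being added, and the members' median log2 fold change was 0.0879. The values of Ifit1 (-0.1099), Parp9 (-0.0884), Parp12 (-0.0728), Rtp4 (-0.0510), Xaf1 (-0.0037) and Ifi44 (-0.1342) then turned negative, and this scaling moves the median of all genes by -0.2221. The members' median was 0.2575 with at least 5 CPM in 3 libraries, which leaves Oas1g out, and 0.2349 to 0.3583 with a library left out. Ifi27l2a ran from -0.1652 to 0.0406 with a library left out, at 0.0096 without isograft replicate 2, and the cause was not tested. With a library left out, Parp9, Parp12, Dtx3l, Herc6, Cmpk2 and Ifi44 also moved by over 1.5 times in at least 1 case, none of them passing. Same-numbered libraries did not deviate together (correlations -0.06, 0.00 and -0.03), and no library correlated best with its own number. With the replicate block, 22 members rose and 7 fell, their median was 0.3062, and 4064 of all genes rose and 4152 fell. Depth limits Oas1g and Oas1c, the members with the fewest counts. For 8 of the 9 ratios of paired members the groups did not overlap. The groups were also apart for 63.3% of single genes tested, and the share over ratios of other genes was not counted. Leaving out a library could not turn the direction of those 8 ratios. Oas2 over Oas3 kept its direction too when any library was left out, though it was at -0.1610 without isograft replicate 1.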
